A study of Mus musculus with 4 samples.

Results

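The genes described here are 10 mouse genes of the immediate early response and of short-lived transcription factors, taken by symbol from a table of 49568 genes: Jun, Junb, Jund, Fos, Fosl1, Atf3, Egr1, Ier2, Ier3 and Myc. Their mRNAs were compared between purified migrasomes and cytosol, with 2 RNA sequencing libraries of each fraction. A migrasome is a large vesicle that forms on the retraction fibres trailing a migrating cell, and the title of the series concerns mRNA that migrasomes pass to other cells. Labels name only the fraction, migrasome or cytosol, and give no cell type, genotype, culture or treatment. Since no library is said to come from a separate culture, the p-values reflect the spread among these 4 libraries, which may be technical.

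Immediate early genes are switched on within minutes of a growth factor, serum or stress signal, without new protein synthesis. Their mRNAs are short-lived, many through AU-rich elements in the 3′ untranslated region (3′ UTR) that bind decay factors such as tristetraprolin. Jun and Fos proteins pair through leucine zippers to form the transcription factor AP-1, Atf3 is a stress-induced relative of them, Egr1 is a zinc finger factor, and Myc pairs with Max to drive growth genes. Ier2 and Ier3 encode small induced proteins, a nuclear regulator and a survival factor annotated as a membrane protein.

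The ATTTA pentamer, the core of AU-rich elements, lay in the 3′ UTR of 9 of the 10 genes and was not found in Ier2. It lay in 65.8% of the 10009 tested genes with an annotated coding transcript. Windows of 30 bases with the most pentamers are shown for some of the genes compared below (Jun, Ier3, Myc and Jund) and for Fos, the textbook example. Each pentamer is in capitals (GENCODE M21 transcripts, build GRCm38, 5′ to 3′).
Fos, chr12:85477101-85477130, plus strand: tgtgttttcaATTTATTTAttaagatggat
Jun, chr4:95049207-95049236, minus strand: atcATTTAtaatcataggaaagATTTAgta
Ier3, chr17:35822484-35822513, plus strand: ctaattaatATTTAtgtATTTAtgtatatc
Myc, chr15:61990134-61990163, plus strand: ttaacagatttgtATTTAattgttttttta
Jund, chr8:70700358-70700387, plus strand: ccgattccgccctATTTAtgtttctactcg
The Fos window holds 2 overlapping pentamers and the longer motif TTATTTATT, which 7.20% of the 10009 genes carry and no other gene of the 10 did. Jun and Ier3 have 2 separate pentamers in their windows, and Myc and Jund have 1.

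The libraries held 5228713 and 5171092 recovered reads in migrasome replicates 1 and 2, and 7529136 and 8608369 in cytosol replicates 1 and 2. All gene levels that follow are normalised read counts as deposited, in which 1 read is worth between 0.686 and 1.41. RNAs listed as retained in the nucleus were present in both fractions. Their sum was lower in migrasome (86683 and 127347) than in cytosol (391742 and 348816). Rpph1, Rmrp and Rn7sk made up most of it, with 227079, 76484 and 69225 in cytosol replicate 1. Of 11 tested RNAs, 6 fell and none rose (log2 difference -3.45 for Terc and -2.93 for Rn7sk). Malat1 did not pass, with 4492 ± 863 in migrasome and 8064 ± 3494 in cytosol (SD, n = 2 here and below). Neat1, Kcnq1ot1 and Firre did not pass either. Of 8 tested fibroblast markers 5 fell (Col1a1, Col1a2, Col3a1, Pdgfra and Pdgfrb) and 1 rose (Vim). All 10 listed summed to 49359 to 73050 over the libraries. Most of that sum was S100a4 (33718 ± 5382 in migrasome and 23663 ± 1099 in cytosol) and Vim (29564 ± 4967 and 15303 ± 1530). The 5 epithelial and 4 endothelial markers summed to at most 3.95 in any library, and the 8 macrophage and leukocyte markers to at most 50.8. The 6 neural markers summed to 161 and 151 in the migrasome libraries against 77.6 and 77.5 in the cytosol libraries, with a median log2 difference of 1.01, and Map2 and Snap25 rose. All 9 tested mitochondrially encoded mRNAs rose (median 2.18), the 13 listed summing to 66543 and 136494 for migrasome against 17749 and 28596 for cytosol. The part of any of these RNAs in the results below was not tested. As these are bulk libraries, fewer particles that carry an mRNA cannot be told apart from less of it in each.

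The immediate early mRNAs were mostly lower in migrasome than in cytosol. The test took genes that reached 10 in 2 or more libraries, which 8 of the 10 did and Fos and Atf3 did not. Ier3, Jun, Junb and Myc fell, none rose, and Fosl1, Ier2, Jund and Egr1 did not pass (limma on log2(value + 1), Benjamini-Hochberg adjusted p below 0.05 over 10860 genes). Across all tested genes 17.7% were called lower and 8.68% higher. Both migrasome libraries lay below both cytosol libraries for 7 of the 8, all but Egr1, against 36.3% of all tested genes (33.3% lay wholly above). The median log2 difference, migrasome minus cytosol, was -0.96 over the 8 genes and -0.00 over all tested genes. Together the 10 genes took 0.0124% and 0.0227% of all reads in the migrasome libraries, against 0.0344% and 0.0366% in the cytosol libraries.

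**Figure D1:**
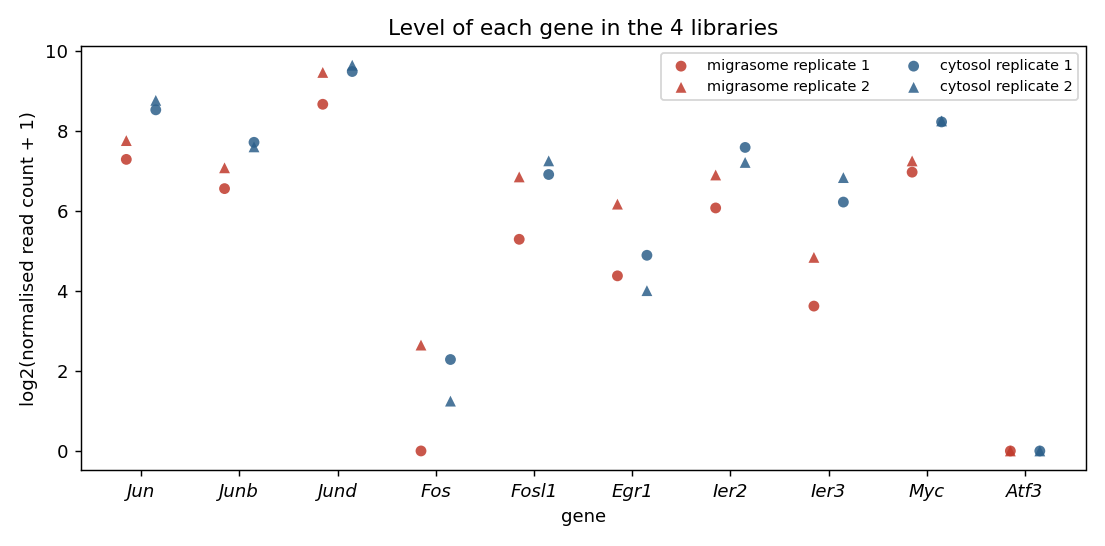
Level of each of the 10 genes as log2(normalised read count + 1) on the vertical axis, with migrasome libraries in red, cytosol libraries in blue, circles for replicate 1 and triangles for replicate 2. Both migrasome points lie below both cytosol points for Jun, Junb, Jund, Fosl1, Ier2, Ier3 and Myc, and Atf3 is at 0 throughout.

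Among the Jun genes, Jun, a strongly activating partner in AP-1, had values of 156 (110 reads) and 216 (164 reads) in the first and second migrasome library. The cytosol libraries, in the same order, gave 368 (475 reads) and 434 (633 reads). Both migrasome libraries were thus well below both cytosol libraries, and Jun fell by 1.12 ± 0.24 on the log2 scale (SE, limma adjusted p = 0.0088). Its gene is a single exon on chromosome 4 from 95049034 to 95052222 (minus strand, GRCm38). The call ended with cytosol replicate 2 left out (limma adjusted p = 0.057). Here and below, leaving out a library leaves 1 in its fraction, which is assumed to vary like the pair of the other fraction. The spread that limma uses is also drawn from all tested genes. Such p-values thus have no replicate check of the fraction with 1 library. The antisense gene Junos covers 7.28% of its exon bases and ranged from 22.6 to 36.9.

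Junb, a Jun relative that often restrains Jun activity, had migrasome values of 93.3 and 134 against cytosol values of 209 and 193. The groups did not overlap, and Junb fell by 0.84 ± 0.26 (limma adjusted p = 0.038). The call was lost in 7 of 14 alternative settings, among them without any one of migrasome replicate 1, cytosol replicate 1 or cytosol replicate 2 (limma adjusted p = 0.093, 0.21 and 0.13), with quantile normalization (0.13) and with DESeq2 on recovered reads (0.060). Junb lies on chromosome 8 from 84974484 to 84978718 (minus strand), where 7.52% of its annotated exon bases are shared with Prdx2 on the other strand, a gene with migrasome values of 1871 and 1640 and cytosol values of 1029 and 1074. Whether reads were counted by strand is not stated, so reads in such overlaps are uncertain here and for the other genes with one.

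Jund, the most steadily expressed Jun gene, gave 406 and 705 in the migrasome libraries against 717 and 800 in the cytosol libraries. The groups were separated by a narrow gap, and Jund did not pass (-0.50 ± 0.27, limma adjusted p = 0.18). Migrasome replicate 2 stood close to the cytosol libraries and replicate 1 well below them. Without replicate 2 the difference was -0.90, and without replicate 1 it was -0.10. Jund is a single exon on chromosome 8 from 70698949 to 70700616 (plus strand), with 52.6% of its bases under the antisense model Gm11175, which was at 2.83 or less in each library.

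The make-up of Jun family reads was compared within each library. Jund made up 62.0% (95% Wilson interval 57.5 to 66.3) and 66.8% (63.5 to 70.0) of Jun, Junb and Jund reads in migrasome replicates 1 and 2. In cytosol it made up 55.4% (53.0 to 57.7) and 56.0% (53.9 to 58.2). Jun itself made up 23.8% and 20.4% in migrasome and 28.5% and 30.4% in cytosol, with no overlap of the groups. Junb made up 14.3% and 12.7% in migrasome and 16.2% and 13.6% in cytosol, where the groups overlapped. These shares do not depend on how libraries are scaled. An exact permutation test (two-sided) of 2 libraries against 2 cannot go below p = 0.33, the value reached by both Jund and Jun, and the intervals cover counting error only.

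**Figure D2:**
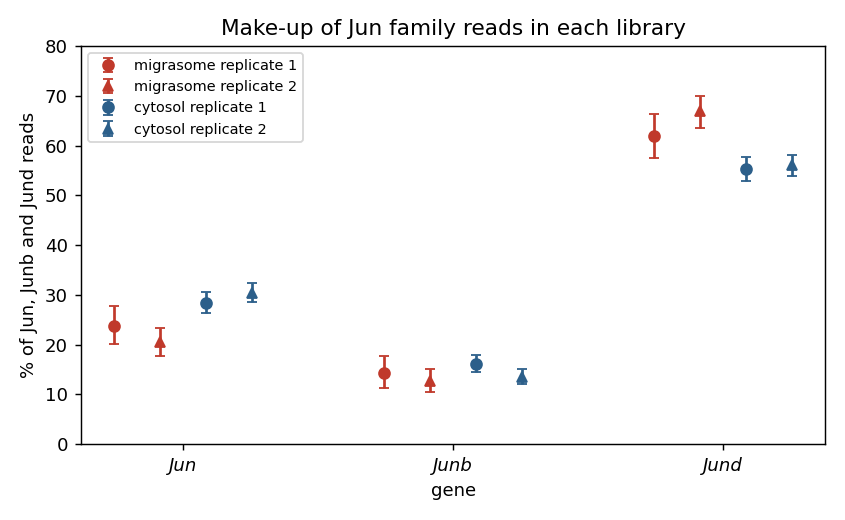
Share of Jun, Junb and Jund among their summed reads in each library, in percent, with 95% Wilson intervals as bars, migrasome in red and cytosol in blue. Jund stands at 62.0% and 66.8% in the migrasome libraries, above the 55.4% and 56.0% of the cytosol libraries.

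Among the Fos genes, Fosl1, which encodes the AP-1 partner Fra-1 linked to cell motility, was measured at 38.2 and 114 for migrasome and 119 and 152 for cytosol. Migrasome replicate 2 was just below cytosol replicate 1, and Fosl1 did not pass (-1.01 ± 0.44, limma adjusted p = 0.11). Dropping migrasome replicate 2 gave -1.79, and dropping replicate 1 gave -0.23. Fosl1 spans 5447547 to 5455946 on the plus strand of chromosome 19, where 57.2% of its exon bases are overlapped by Ccdc85b, a gene at 1.41 or less in each library.
Fos itself was near the limit of detection, with 0 and 4 reads in migrasome and 5 and 2 in cytosol. With no read, migrasome replicate 1 is below the value of 3 reads, 4.24, so a difference in Fos was not detectable at this depth. Atf3 had no read in any library and was below 4.24 and 3.95 in migrasome and 2.33 and 2.06 in cytosol, limits that cover counting error only.

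Egr1, whose product binds GC-rich promoters, had migrasome values of 19.8 (14 reads) and 71.1 (54 reads). Its cytosol values were 28.7 (37 reads) and 15.1 (22 reads). One migrasome library lay above both cytosol libraries and the other between them (0.82 ± 0.57, limma adjusted p = 0.29). Without migrasome replicate 1 the difference was 1.72, with 1 migrasome library left, and without replicate 2 it was -0.07. The direction thus rests on migrasome replicate 2. The gene is on chromosome 18 from 34859823 to 34864984 (plus strand).

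Ier3, an inhibitor of cell death that stress and NF-kappaB signals induce, had the largest fall of the set. Its migrasome values were 11.3 and 27.6, from 8 and 21 reads, and its cytosol values 73.7 and 113, from 95 and 165 reads. The migrasome mean was 20.8% of the cytosol mean, and the log2 difference was -2.30 ± 0.44 (limma adjusted p = 0.0047). Of all tested genes, 1.18% had a more negative difference. Ier3 lies on chromosome 17 from 35821684 to 35822923 (plus strand) and has 8.16 pentamers per kilobase of 3′ UTR, above the density of 96.8% of tested coding genes. Ier2, also induced by growth factors, gave 66.5 and 118 for migrasome against 192 and 147 for cytosol. The groups did not overlap, and Ier2 missed the threshold (-0.91 ± 0.31, limma adjusted p = 0.055). It passed in 5 of the 14 alternative settings. They were edgeR on recovered reads (adjusted p = 0.044), scaling to the same total (limma adjusted p = 0.038), a mean of at least 50 (0.049), the replicate block and without migrasome replicate 2. With the block, the p-value rests mostly on the spread drawn from all tested genes. The difference of Ier2 was -1.33 without migrasome replicate 2 and -0.50 without migrasome replicate 1.

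Myc, the growth regulator, had migrasome values of 124 and 151 against 299 and 304 in the cytosol libraries, the closest replicates of the 8 tested genes. It fell by 1.13 ± 0.23 (limma adjusted p = 0.0063), with a migrasome mean at 45.8% of the cytosol mean. The 4 differences between single libraries lay between -1.28 and -0.98. Its gene is on chromosome 15 from 61985391 to 61990374 (plus strand). Ier3 and Myc kept their call in each of the 14 alternative settings, with differences from -2.91 to -1.69 and from -1.40 to -0.90.

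**Figure D3:**
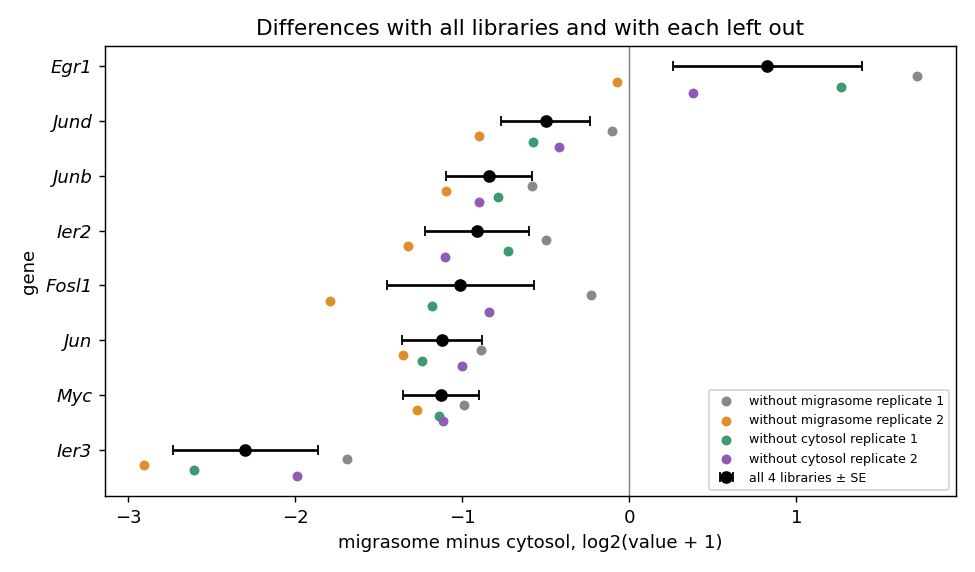
Log2 difference between migrasome and cytosol of each tested gene (horizontal axis, negative where migrasome is lower), with all 4 libraries (black, bars are the SE) and with each library left out (coloured points). Ier3, Myc, Jun and Junb stay below 0 in every setting shown, while Egr1 ranges from -0.07 to 1.72.

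The migrasome libraries differed from each other for these genes. All 8 tested genes were higher in migrasome replicate 2 than in replicate 1, by 1.22-fold for Myc to 3.59-fold for Egr1, with a median of 1.76-fold. Of all tested genes, 51.6% were higher in replicate 2. In cytosol 5 of the 8 were higher in replicate 2. By their sums given above, the listed nuclear RNAs and the mitochondrially encoded mRNAs were also higher in migrasome replicate 2. Those sums rest largely on Rpph1 (48305 and 82103 in migrasome replicates 1 and 2) and mt-Co1 (47373 and 111818). Not every RNA was higher: Malat1 had 5102 and 3882, and mt-Nd6 had 703 and 433. The part of either group in the values of the 8 tested genes was not tested. The call rule passed 4 of the genes with all libraries, 7 without migrasome replicate 2, with 1 migrasome library left, and 2 (Ier3 and Myc) without cytosol replicate 2.

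Per length, as reads per kilobase of exon scaled to library size (RPKM), cytosol levels were led by Jund with a mean of 77.4. Jun (21.4), Ier2 (19.0), Myc (18.9), Junb (14.9), Ier3 (14.1), Fosl1 (11.3), Egr1 (0.83) and Fos (0.19) followed. Neighbours with overlapping libraries were Jun and Ier2, Ier2 and Myc, Junb and Ier3, and Ier3 and Fosl1. The migrasome RPKM was again highest for Jund (47.5), followed by Ier2 (8.67), Jun (8.27), Myc (7.19), Junb (7.03), Fosl1 (5.41), Ier3 (2.47), Egr1 (1.46) and Fos (0.16). There every neighbour from Ier2 to Egr1 overlapped the next. Ier3, next to Junb in cytosol, lay in migrasome at an RPKM of 1.35 and 3.59, below both Junb libraries (5.49 and 8.57). Length counted all exon bases, also the 52.6% of Jund and 57.2% of Fosl1 under another gene, which leaves their RPKM and rank uncertain.

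Other immediate early genes were read from lists. All lists here and below were chosen with earlier results of these data known, so their shares are descriptive. Some genes, such as Maff, stand in several lists. Of 47 tested genes with a nuclear or cytosolic product, 21 fell and 1 rose (44.7% lower, against 17.7% of all tested genes), with a median log2 difference of -0.85. The growth inhibitor Btg1 fell, with 425 ± 84.3 for migrasome against 918 ± 229 for cytosol. Cebpb, a leucine zipper factor of inflammation and fat cells, fell by 1.07 ± 0.27, and the phosphatase gene Dusp1, which switches MAP kinases off, by 1.38 ± 0.38. Odc1, the first enzyme of polyamine synthesis and the most abundant of the list, did not pass, with means of 9209 ± 147 (migrasome) and 6066 ± 210 (cytosol). Maff, a small Maf factor, was the single gene that rose (382 ± 25.9 against 190 ± 44.2). The number that fell was 36 without migrasome replicate 2, but 10 and 5 without cytosol replicates 1 and 2, 12 with quantile normalization and 11 with no filter.

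Immediate early genes for secreted or membrane proteins formed a second list. Of 17 tested, 14 fell and none rose (82.4% lower), with a median of -1.80. The chemokine gene Ccl2 fell, with 349 ± 44.9 for migrasome against 1470 ± 16.3 for cytosol. Vegfa, an angiogenic growth factor, and Plaur, the urokinase receptor, also fell (log2 difference -1.97 ± 0.26 and -2.55 ± 0.32). Mcl1, a survival factor anchored in the outer mitochondrial membrane, did not pass (5325 ± 2277 against 4823 ± 611). Leaving out single libraries gave 11 to 15 genes that fell. The difference between this list and the 10 genes was not tested.

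Relatives of the 10 genes went both ways. In the list of other AP-1 and ATF/CREB factors 5 of 20 tested fell and 3 rose, with a median of -0.24. These are 25% lower and 15% higher, where all tested genes also went both ways (17.7% and 8.68%). The difference between the list and all tested genes was not tested. Those that fell were Atf6 (-1.94 ± 0.28), Atf6b (-1.83 ± 0.30), Nfe2l1 (-1.49 ± 0.24), Creb3 (-1.19 ± 0.24) and Mafk (-0.80 ± 0.21). The proteins of Atf6, Atf6b, Creb3 and Nfe2l1 are known to be made as precursors held in the endoplasmic reticulum membrane, a grouping made after the values were seen and not tested. Those that rose were Crebl2 (2.24 ± 0.39), Mafg (1.08 ± 0.32) and Maff (1.02 ± 0.24). Atf4, the stress response factor, was the most abundant (4711 ± 1452 against 5658 ± 992 in cytosol), and Fosl2, encoding Fra-2, had overlapping groups (409 and 740 against 725 and 469). Neither passed.
Of the 10 tested genes of the Myc network none was called, with a median of -0.28. Mga, a repressor that pairs with Max, gave 944 ± 107 against 1095 ± 154. Nab2, a co-repressor of Egr1, fell by 0.90 ± 0.23, and its relative Nab1 did not pass (1175 ± 280 against 1034 ± 80.4). Srf, the serum response factor that switches Fos and Egr1 on, gave 551 ± 99.2 against 545 ± 43.7. Of its partners, Elk4 rose (log2 difference 1.45 ± 0.30) and Elk3 fell (-0.75 ± 0.21).

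No gene of the MAP kinase signalling list or of the mRNA decay list was called lower, against 17.7% of all tested genes. Their shares called higher (7.41% and 7.89%) were near the 8.68% of all tested genes. In MAP kinase signalling 2 of 27 rose, the kinase genes Map2k7 (1.36 ± 0.24) and Rps6ka3 (1.03 ± 0.25). Nras, the most abundant, did not pass (4543 ± 0.55 against 3415 ± 161). Of 38 genes for AU-rich element binding and mRNA decay 3 rose: the decapping enzyme gene Dcp2 (1.08 ± 0.26), the exosome gene Exosc10 (0.76 ± 0.21) and Cnot10 (0.67 ± 0.22), of the deadenylase complex. Of 59 constitutive transcription factors 2 fell and 1 rose (3.39% lower and 1.69% higher, both below the shares of all tested genes). Srebf1, a regulator of lipid synthesis, fell by 2.04 ± 0.25, while its relative Srebf2 did not pass (-0.93 ± 0.32, limma adjusted p = 0.058). Mef2d fell by 0.79 ± 0.26, and Zeb2 rose by 1.04 ± 0.21. The medians of the 3 lists were 0.07, 0.25 and 0.03, and turned to -0.20, -0.02 and -0.24 with scaling to the same total, where 1, 0 and 9 genes were lower. Without migrasome replicate 2 the numbers lower were 1, 4 and 9 and the numbers higher 5, 12 and 4.

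**Figure D4:**
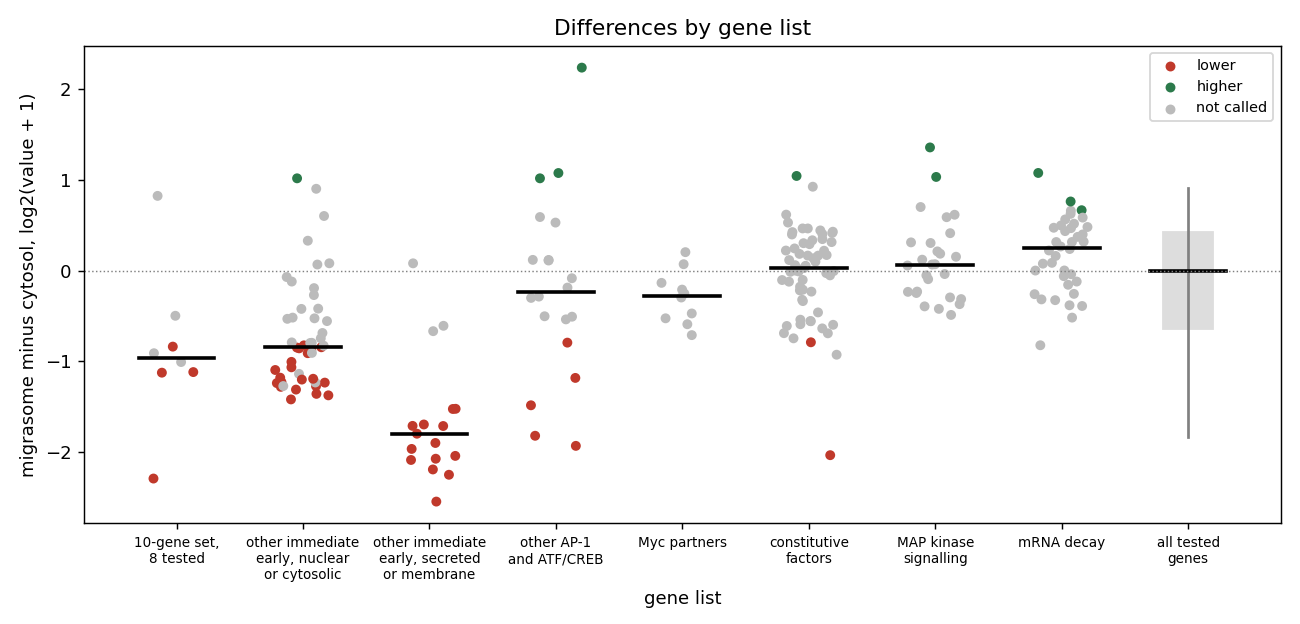
Log2 difference, migrasome minus cytosol, of every tested gene in each list (points, coloured by call), with the list median as a black line; for all tested genes the box spans the interquartile range and the thin line most of the genes. The medians are -0.96 for the 10-gene set, -0.85 and -1.80 for the other immediate early lists and 0.03 for constitutive factors.

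Zinc finger genes named Zfp and replication-dependent histone genes were set beside these lists. Of 266 tested Zfp genes 47 fell and 2 rose (17.7% lower, the share over all tested genes), with a median of -0.54. Of 52 tested histone genes, which are near-identical copies whose single values are uncertain, 26 fell and none rose, with a median of -0.78. The difference between these sets and the 10 genes was not tested.

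The 10 genes share some features that their choice did not use. All 10 have transcripts with a GC content above the median of tested coding genes (50.3%), 6 of them in the highest quartile, and Jund reaches 67.1%. In 8 the transcript is shorter than the median of 2991 bases, and in 7 the 3′ UTR is shorter than the median of 957 bases. Pentamer density was above the median of 1.25 per kilobase in 9. Jun, Junb, Jund and Ier2 have a representative transcript of 1 exon, a form held by 2.10% of tested coding genes, so no splice junction marks their reads as spliced mRNA. Pentamer density was 8.16, 4.52, 4.12 and 3.24 per kilobase in Ier3, Myc, Junb and Jun, each called lower. It was 1.88, 1.64 and 1.57 in Jund, Egr1 and Fosl1, which did not pass. Ier2, with no pentamer, did not pass either and had a difference of -0.91 beside -0.84 for Junb. A link between density and difference was not tested.

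The genes whose 4 library values were most like the mean profile of the 8 tested genes were Zfp956, Asxl1, Ticrr, Zcchc4 and Slc35e2, out of 8293 candidates with a mean of at least 50. The Euclidean distance between centred log2 profiles over the 4 libraries was 0.047 for Zfp956 and 0.11 for Slc35e2. Asxl1, a chromatin regulator, had migrasome values of 154 and 287 against 411 and 400 for cytosol. It was called lower, and Zfp956, Ticrr, Zcchc4 and Slc35e2 were not (limma adjusted p = 0.083, 0.080, 0.11 and 0.093). The lowest library of Asxl1 was migrasome replicate 1, as for each of the 8 tested genes but Egr1. Because these genes were picked by their profile, the choice itself set their direction and lowest library.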

How the data were processed

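RNA of migrasome and cytosol was profiled in 2 libraries each, grouped by sample titles. Tools named in the submitters' processing notes were STAR, HTSeq, DESeq, cutadapt, Trimmomatic and FastQC, with build GRCm38. Annotation and strand setting are not stated there. The deposited signal per gene is a read count that the authors scaled with a size factor for each library, judged from those tools and the values. All values (100%) were whole multiples of what 1 read is worth (tolerance 0.001), which returned whole reads. Symbols were matched to GENCODE M21 (47240 of 49568, and 97.8% of tested genes).

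Genes reaching 10 in 2 or more libraries were tested on log2(value + 1), a scale that understates changes of low genes, with limma 3.58.1 (eBayes with trend) in R 4.3.3, 2-sided, Benjamini-Hochberg adjusted, threshold 0.05. The script was tested on simulated data, where it called 36 of 100 genes changed 2-fold and 94 of 100 changed 4-fold, with 5 false calls. A gene that did not pass may thus still differ by 2-fold. No other gene of the 10860 simulated was changed, whereas 2862 were called in the data, so the simulated counts need not hold there. On the recovered reads, edgeR 4.0.16 called 3135 and DESeq2 1.42.0 called 2739 genes. The other alternatives were pseudocounts of 0.5 and 5, no filter, a mean of at least 50, no trend, scaling to the same total, quantile normalization, a replicate block and leaving out each library. Intervals are Wilson, at 95%.

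Members and lists were chosen with earlier results of these data known. The naming rule took all 10 genes, the 4 most abundant tested genes of each list and the 5 nearest profiles. Not every gene the rule took is reported here. Genes named beyond it were chosen after their values were seen, among them Dusp1, Maff, Plaur, Atf6, Atf6b, Creb3, Mafk, Crebl2, Fosl2, Srebf1, Mef2d, Map2k7, Rps6ka3, Dcp2, Exosc10, Cnot10, Srebf2 and Terc. The transcript with the longest coding sequence represented each gene. Figures used matplotlib 3.10.9.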

Additional observations from a re-analysis of the deposited data

How the results depend on the processing

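Of all tested genes 2862 were called. The number was 1741 with no filter, 4423 with a replicate block, and 1414 to 4885 with single libraries left out (1433 without cytosol replicate 1, 1414 without cytosol replicate 2, 4885 without migrasome replicate 2). Of the 10 genes, 4 were called lower, with 2 to 7 when single libraries were left out, and 3 to 6 in the other settings. None was called higher in any setting but one, Egr1 without migrasome replicate 1 (0 to 1, difference 1.72), where only the cytosol fraction has replicates. Egr1 changed sign without migrasome replicate 2 (-0.072). Calls that were lower made up 67.1% of all calls, against 88.7% with scaling to the same total, 55.8% with quantile normalization and 77.6% with eBayes without a trend. Those scalings moved the median of all tested genes to -0.27 and 0.10, and that of the 8 tested genes to -1.23 and -0.60. Same-numbered libraries deviated together (r = 0.23 across 10860 genes, which are not independent), but no label ties equal numbers to a shared culture or day. With the replicate block 6 of the 10 genes were called lower, Fosl1 and Ier2 in addition (limma adjusted p = 0.00068 and 0.0013). That model leaves little spread of each gene's own, so its p-values rest mostly on the spread drawn from all tested genes. At the same difference, Ier3 went from a limma adjusted p of 0.0047 to 1.09e-10. Egr1, Ier3 and Fos rest on few reads, which limits their precision.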

Other observations

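Calls were also counted by gene structure, with no test of the differences. Of 210 tested genes with a coding transcript of 1 exon, 31.9% were called lower and 7.14% higher, with a median log2 difference of -0.62. Without histone genes, 43 of 162 were lower and 15 higher (median -0.48). Genes with 5 or more exons had a median of 0.04, with 17.1% lower and 9.51% higher. By GC content of the transcript, the share called lower was 15.1% in the lowest quartile and 22.5% in the highest, and the share called higher 11.0% and 4.28%. Median 3′ UTR length was 1718 bases in the lowest GC quartile and 522 in the highest, so these features vary together.

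By number of ATTTA pentamers in the 3′ UTR, the share called lower was 15.7% of 3426 genes with none, 18.9% of 3131 with 1 to 2, 21.6% of 1908 with 3 to 5, 17.7% of 1093 with 6 to 10 and 14.2% of 451 with more. It thus did not follow the number in one direction. Genes with the motif TTATTTATT had a median of -0.20 (721 genes), against -0.00 in the 9288 without it. The shares called lower were close, 19.0% with the motif and 17.9% without. Genes with the motif also had a longer median 3′ UTR (2231 against 899 bases) and a lower median GC content (47.5% against 50.6%).

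In RefSeq promoter windows (GRCm38.p6, around the start), listed for 6 of the 10 genes (Atf3, Fos, Ier3, Jun, Junb and Jund), no match was found to the AP-1 motif TGACTCA, the motif TGACGTCA or the serum response element, searched on both strands. The motifs were found in 5.95%, 2.03% and 1.81% of 27025 genes with a window. Only the windows were searched, so sites outside them would be missed, and no match does not mean that a gene lacks the motif.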
